A study of Mus musculus with 12 samples.

Results

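The bone morphogenetic protein (BMP) pathway was followed here through 10 genes: the ligands Bmp2, Bmp4, Bmp5 and Bmp7, the target genes Id1, Id2, Id3 and Id4, the intracellular inhibitor Smad6 and the secreted inhibitor Nog (noggin). They were chosen by gene symbol, with earlier results of these data known, as 10 of the 24421 symbols of the deposited count table. The shares of all genes given beside their counts below are therefore descriptions. Each of the 10 passed the filter on low counts that left 14810 genes for testing. The RNA came from C57Bl/6 mouse embryos of a line described as neural crest cell-specific for Eftud2, which encodes a GTPase of the spliceosome. Eftud2+/- heterozygotes served as controls and Eftud2-/- homozygotes as mutants, each with 3 libraries from embryonic day 9.0 (E9.0) and 3 from E9.5, 12 in all. Every group thus carried at least 1 altered Eftud2 allele, and no wild-type group was analysed here.

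BMPs are secreted ligands of the TGF-beta family. They bind pairs of serine/threonine kinase receptors, which phosphorylate the signal-transducing Smads, and these enter the nucleus with Smad4 and switch on target genes. The Id genes are the classic direct targets. Their proteins lack the DNA-binding region of the helix-loop-helix factors that they capture, and so hold back differentiation. Smad6 is also a target and blocks the receptors and Smads from inside the cell, while noggin binds the ligands outside it. In the early head, BMPs come from the dorsal neural tube, the surface ectoderm and the pharyngeal arches, and help to form, pattern and maintain the neural crest.

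The libraries held 13914543 to 24302660 counts at E9.0 and 24165537 to 31172708 at E9.5. In heterozygous E9.0 replicate 1, Rn45s (the ribosomal RNA precursor) took 37.4% of the counts, against at most 16.2% in the other 11 libraries. Levels are CPM, that is counts scaled to a common library size with TMM factors, as mean ± SD of 3 libraries. Eftud2 itself was at 275 to 302 CPM in heterozygous and 232 to 236 CPM in homozygous libraries at E9.0. At E9.5 it was at 248 to 264 and 221 to 226 CPM, and its genotype difference passed the edgeR threshold at E9.0 (adjusted p = 0.0193) but not at E9.5 (adjusted p = 0.0906). What was sequenced is described in 3 ways in the labels, as neural crest cells, as ganglia of the cranial nerves and as heads. Markers of migrating neural crest summed to 265 to 478 CPM per library, markers of neural progenitors to 641 to 832 CPM and markers of heart muscle to 74.0 to 3337 CPM. None of the 68 marker genes of 8 cell types was at 0 in any library except Hba-a1, so the libraries held RNA of many cell types. A lower level in such bulk RNA may mean fewer cells of a type or less RNA per cell, and these cannot be told apart. The labels do not say how many embryos made a library or which Cre line was used, so the p-values measure the spread between these libraries only.

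The 10 genes differed widely in level. Per kilobase of exon in heterozygous E9.0 embryos, Id3 was highest at 95.9 ± 10.6 CPM, followed by Id1 at 66.0 ± 3.24 and Id2 at 33.9 ± 0.148. Bmp7, at 7.62 ± 1.04 CPM per kilobase, was the most abundant ligand, and Smad6 stood at 5.97 ± 0.521. Bmp5 at 4.68 ± 0.529, Bmp4 at 3.73 ± 0.843 and Nog at 3.44 ± 0.271 CPM per kilobase overlapped as neighbours in this order. Bmp2 at 2.47 ± 0.230 and Id4 at 2.18 ± 0.407 came last and also overlapped, while all other neighbours were separated by the ranges of their 3 libraries. The order was the same in homozygous E9.0 embryos. At E9.5 the first 3 places and the 4th and 5th (Bmp7 and Smad6) were unchanged in both genotypes, and Bmp2 was last in both, at 2.26 ± 0.420 and 3.37 ± 0.205 CPM per kilobase. Id4 moved from the last place to the 7th in heterozygous embryos (5.70 ± 0.421) and to the 8th in homozygous embryos (5.04 ± 1.25).

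The start regions of the target genes were examined for letters that the BMP Smads are known to bind. Promoters from RefSeq (GRCm38.p6) were used for 6 of the 10 genes, namely Bmp4, Bmp5, Id2, Id3, Id4 and Smad6; those of Bmp2, Bmp7, Id1 and Nog were not analysed here. Windows of 250 bases before to 50 bases after the start were searched on both strands for GGCGCC and GGAGCC, bound by Smad1 and Smad5, and for GTCTG, bound by Smad4. These 3 motifs do not overlap in the hits found. The 4 target promoters are printed because these genes moved in different directions below, with the 250 bases before the start in lower case and motif letters of either strand in capitals. Id2 lies on the minus strand (chr12:25096093-25096342), Id3 on the plus strand (chr4:136143572-136143821), Id4 on the plus strand (chr13:48260866-48261115) and Smad6 on the minus strand (chr9:64022060-64022309).
Id2: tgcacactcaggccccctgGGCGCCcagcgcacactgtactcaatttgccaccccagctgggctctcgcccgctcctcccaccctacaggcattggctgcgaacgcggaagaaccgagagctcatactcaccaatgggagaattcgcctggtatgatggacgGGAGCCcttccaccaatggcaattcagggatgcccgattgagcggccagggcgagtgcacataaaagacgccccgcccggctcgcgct
Id3: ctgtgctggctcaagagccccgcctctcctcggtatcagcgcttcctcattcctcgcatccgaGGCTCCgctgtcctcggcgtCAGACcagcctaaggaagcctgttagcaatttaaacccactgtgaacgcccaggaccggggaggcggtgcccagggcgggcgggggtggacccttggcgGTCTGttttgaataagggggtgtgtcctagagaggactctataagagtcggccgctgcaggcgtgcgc
Id4: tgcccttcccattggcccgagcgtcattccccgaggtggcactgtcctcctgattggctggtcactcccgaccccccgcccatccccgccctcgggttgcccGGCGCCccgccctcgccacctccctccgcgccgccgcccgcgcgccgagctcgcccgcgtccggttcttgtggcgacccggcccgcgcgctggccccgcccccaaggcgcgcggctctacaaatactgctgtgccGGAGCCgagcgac
Smad6: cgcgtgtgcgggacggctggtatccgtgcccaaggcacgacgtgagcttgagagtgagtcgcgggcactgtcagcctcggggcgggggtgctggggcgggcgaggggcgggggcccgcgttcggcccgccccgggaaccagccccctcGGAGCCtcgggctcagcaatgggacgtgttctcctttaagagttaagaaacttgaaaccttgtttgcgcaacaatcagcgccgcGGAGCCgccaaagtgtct

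Id2 and Id4 each held 1 GGCGCC and 1 GGAGCC, Id3 held 1 GGAGCC and 2 GTCTG, and Smad6 held 2 GGAGCC. Over the 6 promoters, GGAGCC was present in 5, against 30.8% of the 32851 mouse promoters of the same length. Those 5 were 60.0% (Id3) to 73.3% (Id4) G and C, and that of Bmp5, which lacked it, was 43.3%. Base composition was not matched in the comparison with all promoters. GGCGCC was present in 2 of 6, against 11.9% of all promoters, and GTCTG in 2 of 6, against 49.6%. A match of letters is a description and not evidence of a bound site.

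**Figure D1:**
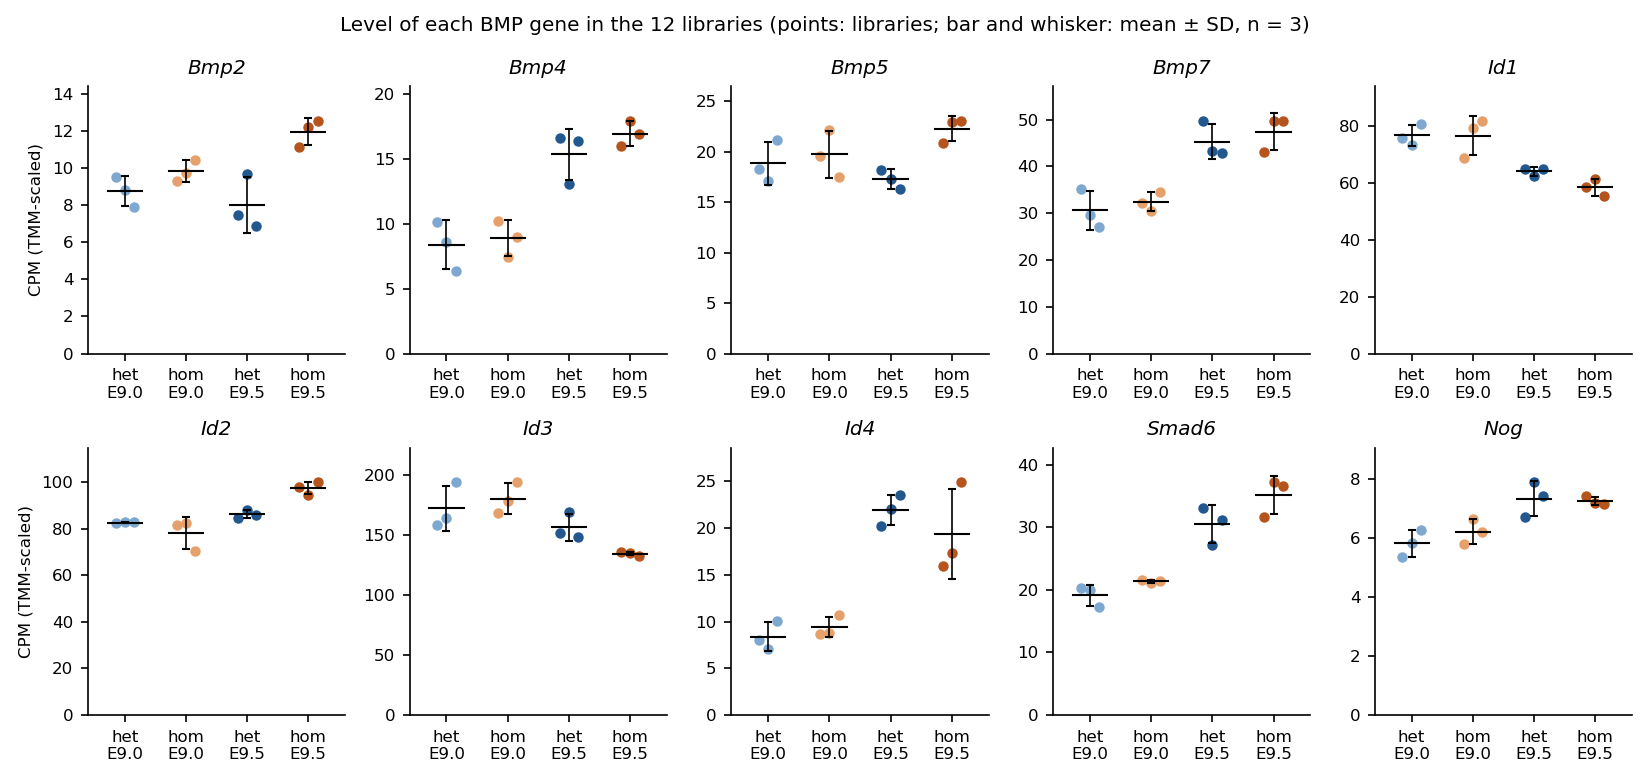
Level of each of the 10 genes in each of the 12 libraries, in CPM after TMM scaling. Points are libraries in columns for heterozygous (het) and homozygous (hom) embryos at each stage, and bars with whiskers are mean ± SD of 3. At E9.5 the homozygous points lie above the heterozygous ones for Bmp2, Bmp5 and Id2 and below them for Id1 and Id3.

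The first question was whether the ligands differed between mutant and control embryos. At E9.5, Bmp2 was the only gene of the 10 that passed the test, about 1.49-fold higher in homozygous embryos. Bmp5 was also higher in every homozygous library but missed the threshold, and Bmp4 and Bmp7 did not pass. At this stage 1 of the 10 genes was called (adjusted p under 0.05), against 1.89% of all genes tested, and it was higher, against 1.19% higher and 0.702% lower of all genes. The median of the 10 log2 differences was 0.11, against -0.0026 over all genes. With DESeq2 and with limma-voom 2 of the 10 were called, Bmp2 and Bmp5, where DESeq2 called 438 and limma-voom 388 of the 14810 genes.

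Bmp2, a ligand needed for the migration of cranial neural crest, measured 7.47, 9.71 and 6.89 CPM in heterozygous E9.5 libraries against 11.2, 12.2 and 12.6 CPM in homozygous E9.5 libraries. The groups did not overlap, and heterozygous replicate 2 lay nearest to the mutants. The means were 8.02 ± 1.49 and 11.98 ± 0.730 CPM (SD, n = 3 libraries each), a log2 difference of 0.57 ± 0.12 (SE; 95% interval 0.32 to 0.83; edgeR adjusted p = 0.0218). The exact two-sided permutation test gave p = 0.1, the smallest that 3 libraries against 3 allow. The direction held when each library was left out in turn, with log2 differences of 0.48 to 0.74. The call did not: it was lost without heterozygous replicate 1 (adjusted p = 0.0775), heterozygous replicate 3 (0.0850), homozygous replicate 2 (0.0921) or homozygous replicate 3 (0.0928). It was also lost with scaling by total counts alone (0.101) and with the 6 E9.5 libraries fitted on their own (0.0530).

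Bmp5, a ligand close in sequence to Bmp7 and expressed in arches, heart and dorsal midline, measured 18.2, 17.3 and 16.3 CPM in heterozygous and 20.8, 22.9 and 23.1 CPM in homozygous libraries at E9.5. The groups did not overlap. The log2 difference was 0.37 ± 0.10 (95% interval 0.16 to 0.57), with an edgeR adjusted p of 0.0723. It passed the threshold with DESeq2 (adjusted p = 0.0255) and with limma-voom (adjusted p = 0.0398). In all, 5 of 12 other settings called it, with adjusted p-values of 0.0212 to 0.595. With 1 library left out, 0 of 6 edgeR fits called it (adjusted p = 0.0837 to 0.2345), at log2 differences of 0.33 to 0.42. GENCODE M21 places the antisense transcript Gm26903 over 1878 exon bases of Bmp5, and whether the counting used strand is not given in the sources used here, so part of the Bmp5 count may belong to that transcript.

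Bmp4, the ligand of the arch ectoderm and dorsal neural tube that induces Msx genes, measured 16.6, 13.1 and 16.4 CPM in heterozygous and 16.0, 17.9 and 17.0 CPM in homozygous E9.5 libraries. The groups overlapped, and the log2 difference was 0.14 ± 0.14 (95% interval -0.14 to 0.43; edgeR adjusted p = 0.751), or 0.044 to 0.21 with 1 library left out. Bmp7, a broadly expressed ligand that forms heterodimers with Bmp2 and Bmp4, measured 49.6, 43.3 and 42.9 against 43.0, 49.7 and 49.7 CPM. Its groups overlapped as well, and its log2 difference of 0.07 ± 0.09 had a 95% interval of -0.13 to 0.26, below that of Bmp2. With 1 library left out the Bmp7 value was 0.034 to 0.14. Of the length-scaled signal of the 4 ligands together, Bmp2 made up 9.21% ± 2.04 in heterozygous and 11.9% ± 0.242 in homozygous E9.5 libraries, and Bmp7 45.7% ± 1.14 and 41.8% ± 0.741.

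Of the 4 Id targets, none passed the edgeR threshold after adjustment at E9.5. Id2 was higher and Id1 and Id3 were lower in every homozygous library than in every heterozygous one, while Id4 overlapped. In all, 5 of the 10 genes had groups that did not overlap (Bmp2, Bmp5, Id1, Id2 and Id3), against 20.9% of all genes tested. The unadjusted edgeR p was under 0.05 for 5 of the 10 (Bmp2, Bmp5, Id2, Id3 and Smad6), against 13.4% of all genes.

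Id2, an Id gene expressed in the cranial neural crest, measured 84.8, 88.3 and 85.8 CPM in heterozygous and 98.0, 94.6 and 99.98 CPM in homozygous E9.5 libraries. The log2 difference was 0.18 ± 0.06 (95% interval 0.05 to 0.30; edgeR adjusted p = 0.172), 13.0% higher without passing. Id3, which is expressed in the dorsal neural tube and in crest progenitors, measured 151, 169 and 148 CPM in heterozygous and 135, 134 and 133 CPM in homozygous libraries. Every mutant library was below every control, by a log2 difference of -0.22 ± 0.08 (95% interval -0.38 to -0.06; edgeR adjusted p = 0.196). Id1, the target most used as a readout of BMP signalling, measured 64.7, 62.2 and 64.9 against 58.3, 61.3 and 55.3 CPM. Its log2 difference was -0.13 ± 0.07 (95% interval -0.27 to 0.01; edgeR adjusted p = 0.421), less than 1 CPM separating the nearest libraries of the 2 genotypes.

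Id4, the Id gene of neural progenitors, measured 20.3, 22.0 and 23.5 CPM in heterozygous and 16.0, 17.3 and 24.9 CPM in homozygous E9.5 libraries. Homozygous replicate 3 was the highest of the 6 and the other mutants were the lowest. The log2 difference was -0.18 ± 0.15 (95% interval -0.50 to 0.14; edgeR adjusted p = 0.697). It was -0.40 without homozygous replicate 3 and -0.054 without homozygous replicate 1, with no call in either case. Of the length-scaled signal of the 4 Id genes together, Id2 made up 19.3% ± 0.231 in heterozygous and 23.5% ± 0.796 in homozygous E9.5 libraries. Id3 made up 47.5% ± 1.91 and 44.0% ± 0.349, and Id1 made up 30.1% ± 1.59 and 29.5% ± 1.34. These shares are descriptions and were not tested.

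Neither inhibitor passed the test at E9.5. Smad6, which is strongly expressed in the heart and vessels, measured 33.1, 27.1 and 31.1 CPM in heterozygous and 31.6, 37.2 and 36.6 CPM in homozygous libraries. The groups overlapped, and the log2 difference was 0.21 ± 0.09 (95% interval 0.02 to 0.39; edgeR adjusted p = 0.322), or 0.13 to 0.28 with 1 library left out. Nog measured 6.71, 7.89 and 7.42 against 7.42, 7.19 and 7.16 CPM, with the mutant values inside the control range. Its log2 difference was -0.02 ± 0.11 (95% interval -0.25 to 0.21; edgeR adjusted p = 0.973).

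**Figure D2:**
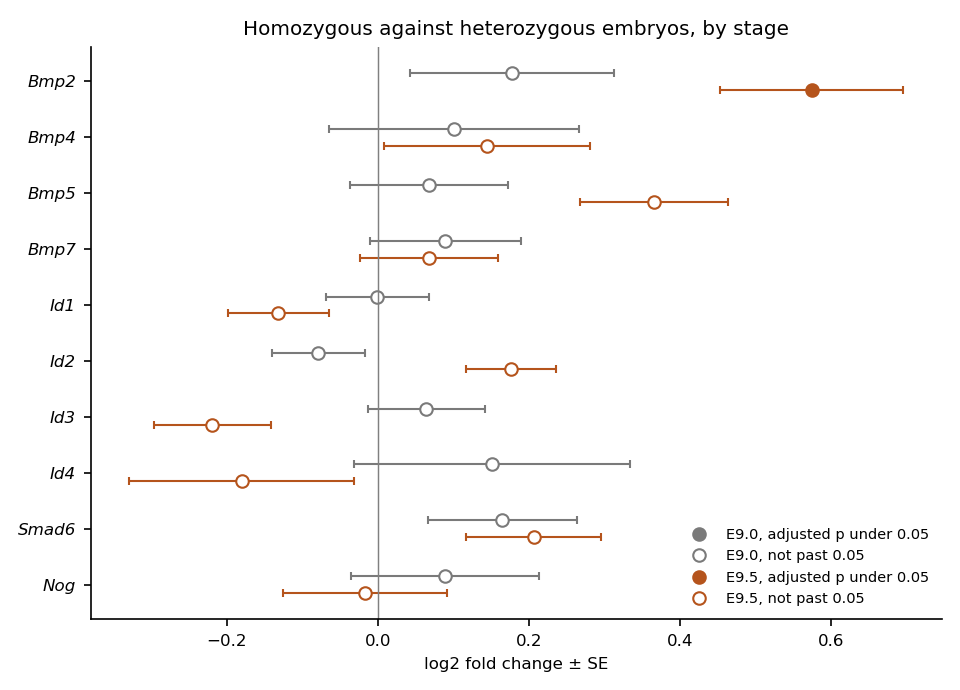
Log2 difference of homozygous minus heterozygous embryos for each of the 10 genes at both stages, with whiskers of 1 SE from edgeR (n = 3 libraries per group). Filled points passed the adjusted threshold of 0.05; the only one is Bmp2 at E9.5, at 0.57.

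At E9.0 none of the 10 genes passed the test with edgeR, DESeq2 or limma-voom, and none had an unadjusted edgeR p under 0.05, against 13.3% of all genes. The share of all genes called at this stage was 0.587%. The log2 differences ran from -0.08 (Id2) to 0.18 (Bmp2), 8 were above 0 (10 with scaling by total counts alone), and their median was 0.09 against -0.0043 over all genes tested. Smad6 was the only gene of the 10 whose groups did not overlap, against 17.3% of all genes.

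Smad6 measured 20.3, 19.9 and 17.2 CPM in heterozygous and 21.5, 21.1 and 21.5 CPM in homozygous E9.0 libraries. The gap between the groups was smaller than the spread among the heterozygotes, and the log2 difference was 0.16 ± 0.10 (95% interval -0.05 to 0.37; edgeR adjusted p = 0.489). Bmp2 measured 9.54, 8.85 and 7.91 against 9.32, 9.74 and 10.5 CPM, with overlapping groups (log2 0.18 ± 0.13; edgeR adjusted p = 0.599). With 1 library left out, the log2 difference at E9.0 was 0.09 to 0.20 for Smad6 and 0.10 to 0.23 for Bmp2. The other settings gave 0.08 to 0.36 for Smad6 and 0.12 to 0.38 for Bmp2. The remaining ligands were close. Bmp4 was at 8.38 ± 1.90 against 8.88 ± 1.39 CPM, Bmp5 at 18.8 ± 2.13 against 19.8 ± 2.34 and Bmp7 at 30.6 ± 4.18 against 32.4 ± 2.04.

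Among the Id genes at E9.0, Id1 had nearly equal means of 76.6 ± 3.76 and 76.5 ± 6.86 CPM. Id3 was at 172 ± 19.0 and 179.7 ± 12.9 CPM and Id4 at 8.40 ± 1.57 and 9.40 ± 1.10. Id2 was at 82.4, 83.1 and 82.8 CPM in heterozygous and 81.9, 82.6 and 70.5 CPM in homozygous libraries, so that 1 mutant library (replicate 3) set the lower mean. Nog was at 5.83 ± 0.460 and 6.22 ± 0.428 CPM. Without the Rn45s-rich heterozygous replicate 1, 0 of the 10 genes were again called at E9.0, and the log2 differences ran from -0.08 to 0.24.

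Averaged over both stages, Bmp2 alone of the 10 passed (log2 0.38 ± 0.09; 95% interval 0.18 to 0.57; edgeR adjusted p = 0.0354), against 2.96% of all genes called and 1.82% called higher. Leaving out each of the 12 libraries in turn kept this call in 3 cases (without replicate 1 of the E9.0 heterozygotes, replicate 2 of the E9.5 heterozygotes or replicate 1 of the E9.5 homozygotes), with log2 values of 0.33 to 0.46 and adjusted p-values of 0.0042 to 0.0894. The next 2 by p, Bmp5 (0.22 ± 0.07; edgeR adjusted p = 0.127) and Smad6 (0.19 ± 0.07; edgeR adjusted p = 0.156), did not pass, although Bmp5 did with the GC and length correction (0.23; adjusted p = 0.0361). The median of the 10 averaged differences was 0.06 against -0.0014 over all genes.

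Whether the genotype difference itself changed between the stages was tested by the interaction of genotype and stage, for which 10 genes, or 0.0675% of all tested, were called. None of the 10 BMP pathway genes was among them with edgeR, DESeq2 or limma-voom, and 3 had an unadjusted edgeR p under 0.05, against 8.60% of all genes. Those 3 were Id2, whose difference was 0.25 ± 0.09 higher at E9.5 (edgeR adjusted p = 0.399), Id3 at -0.28 ± 0.11 (edgeR adjusted p = 0.492) and Bmp2 at 0.40 ± 0.18 (edgeR adjusted p = 0.559). With total counts alone these values were 0.050 (Id2), -0.47 (Id3) and 0.19 (Bmp2). A difference between E9.0 and E9.5 in the effect on Bmp2 was therefore not shown.

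Stage gave more calls among these genes than genotype did. In heterozygous embryos 6 of the 10 passed between E9.0 and E9.5, against 35.2% of all genes, with 5 higher (19.2% of all genes) and 1 lower (16.0%). In homozygous embryos 7 of the 10 passed, against 35.4% of all genes, with 5 higher (19.6%) and 2 lower (15.8%). Groups did not overlap for 7 and 9 of the 10, against 47.7% and 48.2% of all genes. With scaling by total counts alone, under which the median of all genes was 0.38 in heterozygotes, 96.3% of all calls there were higher, against 54.4% with TMM. With the GC and length correction the median of all genes was -0.11 and 31.8% of the calls were higher. The median of the 10 was 0.19 in heterozygous and 0.30 in homozygous embryos, against 0.0082 and 0.015 over all genes. The comparisons of genotype and of stage share libraries, so they are not independent of each other. Markers of other cell types moved with stage as well. Of the 7 erythroid markers tested, 7 passed as higher in both genotypes. Of 10 migrating neural crest markers, 8 passed as lower in heterozygotes and 6 in homozygotes. Their part in the stage differences of the 10 genes was not tested.

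Among the ligands, Bmp4 and Bmp7 rose with stage in both genotypes and Bmp2 and Bmp5 passed in neither with TMM scaling. Bmp4 went from 10.1, 8.63 and 6.36 CPM at E9.0 to 16.6, 13.1 and 16.4 CPM at E9.5 in heterozygotes, a log2 rise of 0.90 ± 0.15 (edgeR adjusted p = 2.8e-04). In homozygotes it rose by 0.94 ± 0.15, from 10.2, 7.45 and 8.98 to 16.0, 17.9 and 17.0 CPM (edgeR adjusted p = 1.9e-04). The stages did not overlap in either genotype. GENCODE M21 places 89 exon bases of the opposite-strand gene Gm15217 over Bmp4.

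Bmp7 went from 35.2, 29.5 and 27.1 to 49.6, 43.3 and 42.9 CPM in heterozygotes, a log2 rise of 0.57 ± 0.10 (edgeR adjusted p = 2.5e-04). In homozygotes it rose from 32.1, 30.5 and 34.6 to 43.0, 49.7 and 49.7 CPM, by 0.55 ± 0.10 (edgeR adjusted p = 3.5e-04). The Bmp2 difference was -0.11 ± 0.13 in heterozygotes (edgeR adjusted p = 0.524) and 0.28 ± 0.13 in homozygotes (edgeR adjusted p = 0.0962). That of Bmp5 was -0.13 ± 0.10 and 0.17 ± 0.10 (edgeR adjusted p = 0.350 and 0.207). With 1 library left out, the heterozygous values ran from -0.28 to -0.02 (Bmp2) and from -0.20 to -0.03 (Bmp5). The homozygous Bmp5 value was 0.089 to 0.27 with 1 library left out and 0.0008 to 0.33 under the other settings. With total counts alone the heterozygous differences turned to 0.26 (Bmp2) and 0.24 (Bmp5), and Bmp2 passed in homozygotes (log2 0.45; adjusted p = 0.0440). With the GC and length correction Bmp5 passed as lower in heterozygotes (log2 -0.27; adjusted p = 0.0155). The heterozygous rise of Bmp7 was 0.96 with total counts alone.

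Id4 had the largest stage difference of the 10 genes. It went from 8.07, 7.03 and 10.1 CPM at E9.0 to 20.3, 22.0 and 23.5 CPM at E9.5 in heterozygotes, 2.59-fold (log2 1.37 ± 0.16; edgeR adjusted p = 1.9e-05). In homozygotes it rose from 8.72, 8.82 and 10.7 to 16.0, 17.3 and 24.9 CPM (log2 1.04 ± 0.17; edgeR adjusted p = 2.2e-04), and the difference between the genotypes in this rise was -0.33 ± 0.24 (edgeR adjusted p = 0.736). With 1 library left out, that difference between the genotypes ran from -0.55 to -0.20, with no call. Opposite-strand transcripts cover 82 (A330033J07Rik) and 171 (Gm49291) exon bases of Id4. Markers of early neurons and ganglia, 8 of 8 of which rose with stage in heterozygotes and 6 of 8 in homozygotes, summed to 78.0 to 82.1 CPM in heterozygous and 77.3 to 79.5 in homozygous E9.0 libraries. At E9.5 they summed to 185 to 223 and 145 to 162 CPM. Of 7 neural progenitor markers, 3 passed as higher and 1 as lower in heterozygotes (median log2 -0.11). In homozygotes 2 passed as higher and 1 as lower (median log2 -0.016). The part of either cell type in the Id4 rise was not tested.

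Among the other Id genes, Id1 fell by 0.26 ± 0.07 on the log2 scale in heterozygotes with TMM scaling (edgeR adjusted p = 0.0068; log2 0.11 with total counts alone and -0.50 with the GC and length correction), from 75.8, 73.2 and 80.6 to 64.7, 62.2 and 64.9 CPM. In homozygotes it fell by 0.39 ± 0.07 (edgeR adjusted p = 3.3e-04), from 68.7, 79.1 and 81.7 to 58.3, 61.3 and 55.3 CPM. Id3 fell by 0.42 ± 0.08 in homozygotes (edgeR adjusted p = 5.3e-04), from 168, 178 and 193 to 135, 134 and 133 CPM, while the heterozygous difference of -0.14 ± 0.08 did not pass (edgeR adjusted p = 0.177). With total counts alone the homozygous calls of Id1 (log2 -0.22; adjusted p = 0.299) and Id3 (log2 -0.25; adjusted p = 0.274) were lost. The heterozygous Id3 value was 0.22 with total counts alone, and with the GC and length correction it was -0.37 and passed (adjusted p = 8.8e-04). Id2 rose by 0.32 ± 0.06 in homozygotes (edgeR adjusted p = 7.5e-04), from 81.9, 82.6 and 70.5 to 98.0, 94.6 and 99.98 CPM. In heterozygotes the Id2 difference was 0.06 ± 0.06 (edgeR adjusted p = 0.461). It passed with total counts alone (log2 0.43; adjusted p = 0.0181) and was -0.12 with the GC and length correction, and the homozygous rise was 0.48 and 0.15 under these settings. Passing in 1 genotype and not in the other is not a difference between them: the interaction of neither gene passed, as given above.

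**Figure D3:**
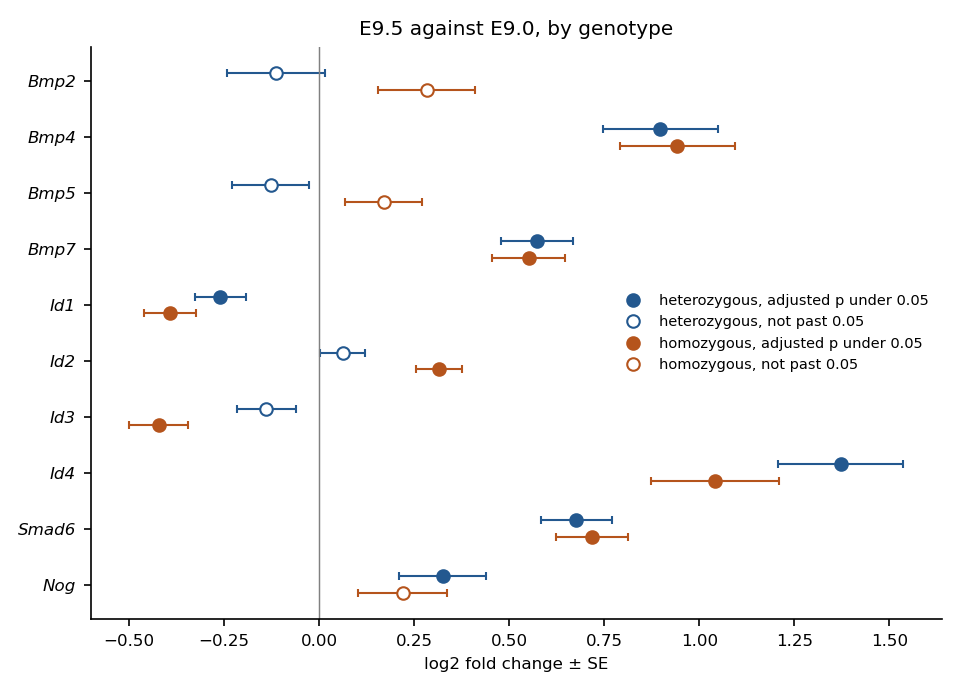
Log2 difference of E9.5 minus E9.0 for each of the 10 genes in heterozygous and homozygous embryos, with whiskers of 1 SE from edgeR (n = 3 libraries per group). Filled points passed the adjusted threshold of 0.05; Id4, Bmp4, Smad6 and Bmp7 lie to the right and, with TMM scaling, Id1 to the left in both genotypes.

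Of the inhibitors, Smad6 rose with stage in both genotypes. It went from 20.3, 19.9 and 17.2 to 33.1, 27.1 and 31.1 CPM in heterozygotes (log2 0.68 ± 0.09; edgeR adjusted p = 4.8e-05) and from 21.5, 21.1 and 21.5 to 31.6, 37.2 and 36.6 CPM in homozygotes (log2 0.72 ± 0.09; edgeR adjusted p = 2.6e-05). Heart muscle markers moved in the same direction: 8 of 8 rose with stage in both genotypes, and their sum went from 74.0 to 255 CPM in heterozygous and 128 to 372 CPM in homozygous E9.0 libraries to 2114 to 2810 and 2513 to 3337 CPM at E9.5. Of 12 endothelial markers, 0 passed as higher and 6 as lower with stage in heterozygotes. In homozygotes 2 passed as higher and 1 as lower. The part of either tissue in the rise of Smad6, which was 1.05 in heterozygotes with total counts alone, was not tested. Nog rose from 5.36, 5.85 and 6.28 to 6.71, 7.89 and 7.42 CPM in heterozygotes (log2 0.32 ± 0.12; edgeR adjusted p = 0.0382). That call was lost without heterozygous E9.0 replicate 1 or 2 (adjusted p = 0.119 and 0.0853) and without heterozygous E9.5 replicate 2 or 3 (0.122 and 0.0882), and it was not made by DESeq2 (0.0744), without a filter (0.0610), with only the groups compared (0.0739) or with the replicate block (0.0516). With the GC and length correction the log2 value was 0.086 (adjusted p = 0.587), and with total counts alone it was 0.69. In homozygotes Nog did not pass (log2 0.22 ± 0.12; edgeR adjusted p = 0.161), and the value was 0.070 to 0.39 under the other settings.

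The rest of the pathway was covered by 63 further genes in 7 lists, of which 58 were tested. Bmp8a, Gdf2, Gdf5, Chrdl2 and Cer1 were not tested, with at most 14 counts in any library. At E9.0, 0 of the 58 passed with edgeR, DESeq2 or limma-voom, against 0.587% of all genes with edgeR. An unadjusted edgeR p under 0.05 was found for 4 of them, against 13.3% of all genes, and their median log2 difference was 0.07. At E9.5, 3 passed, against 1.89% of all genes: the TGF-beta and BMP co-receptor Eng (endoglin) and the secreted antagonist Fst (follistatin) were higher, and Msx1, a homeobox gene of the arches and dorsal midline that BMPs induce, was lower. No gene passed among the 7 other ligands tested, the 4 signal-transducing Smads, the 8 intracellular inhibitors or the 4 ligand-processing enzymes. An unadjusted edgeR p under 0.05 was found for 16 of the 58, against 13.4% of all genes. The median log2 difference of the 58 was 0.04, against -0.0026 over all genes. Averaged over stages, 4 of the 58 passed, against 2.96% of all genes: Msx1 was lower, and Fst, Fstl1 and Eng were higher.

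Msx1 measured 50.8, 44.5 and 48.3 CPM in heterozygous and 31.8, 32.3 and 33.5 CPM in homozygous E9.5 libraries, far apart and without overlap. The log2 difference was -0.56 ± 0.07 (edgeR adjusted p = 5.0e-04), and it was called with any 1 library left out. At E9.0 it measured 31.0, 30.4 and 33.3 against 35.5, 33.2 and 33.8 CPM, with overlapping groups (log2 0.11 ± 0.07; edgeR adjusted p = 0.514). Msx1 thus rose with stage in heterozygotes (log2 0.60 ± 0.07; edgeR adjusted p = 7.7e-06) and differed by -0.07 ± 0.07 in homozygotes without passing (edgeR adjusted p = 0.474). It was the only one of the 58 genes whose interaction passed, at -0.67 ± 0.10 (edgeR adjusted p = 0.0198). Leaving out heterozygous E9.0 replicate 2, heterozygous E9.5 replicate 1 or any 1 homozygous E9.5 library ended that interaction call (adjusted p = 0.0586 to 0.0916). Scaling by total counts alone ended it too (0.136), and the E9.5 call with it (0.0632). Averaged over stages Msx1 was lower by -0.22 ± 0.05 (edgeR adjusted p = 0.0211), a call lost without heterozygous E9.0 replicate 3, heterozygous E9.5 replicate 1 or 3, or homozygous E9.5 replicate 1 or 2 (0.0531 to 0.0615), and with total counts alone (log2 -0.13; 0.665).

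Fst measured 18.2, 26.2 and 19.6 CPM in heterozygous and 37.5, 33.0 and 26.9 CPM in homozygous E9.5 libraries. The groups did not overlap but came within 1 CPM of each other (log2 0.60 ± 0.13; edgeR adjusted p = 0.0278). The call was kept without heterozygous replicate 2 or homozygous replicate 3 and lost without any 1 of the other 4 E9.5 libraries (adjusted p = 0.0740 to 0.101). It was also lost with total counts alone (0.0985), with only the groups compared (0.179) and with the GC and length correction (0.0692). Averaged over stages its difference was 0.47 ± 0.09 (edgeR adjusted p = 0.0109), a call kept with each of the 12 libraries left out. Antisense Gm47040 covers 115 exon bases of Fst. A further antagonist, Fstl1, passed in the average (log2 0.21 ± 0.05; edgeR adjusted p = 0.0355), at 223 against 269 CPM at E9.5. That call was kept in 4 of 12 fits with 1 library left out, those without heterozygous E9.0 replicate 1 or any 1 heterozygous E9.5 library, and was lost with total counts alone (0.152). At E9.5 Fstl1 did not pass with edgeR (log2 0.27 ± 0.07, or 0.18 to 0.33 with 1 library left out; adjusted p = 0.0651) but did with DESeq2 (0.0154), limma-voom (0.0424), no filter (0.0358) or the replicate block (0.0415).

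Eng measured 17.6, 12.8 and 18.1 CPM in heterozygous and 23.5, 23.5 and 25.9 CPM in homozygous E9.5 libraries (log2 0.59 ± 0.13; edgeR adjusted p = 0.0268). That call was kept without heterozygous replicate 1 or 3 and lost without any 1 of the other 4 E9.5 libraries (adjusted p = 0.0598 to 0.108), with total counts alone (0.0802) or with only the groups compared (0.0501). The opposite-strand gene Fpgs covers 61 exon bases of Eng. Averaged over stages, Eng passed narrowly (log2 0.37 ± 0.09; edgeR adjusted p = 0.0489), and that call was kept in 3 of 12 fits with 1 library left out, those without homozygous E9.0 replicate 2 or heterozygous E9.5 replicate 1 or 3. It was lost with limma-voom (0.0600) and with a mean of at least 50 counts (0.0504). Endoglin is a protein of vessel walls, and endothelial markers were examined beside it. At E9.5, 8 of 12 passed as higher in homozygotes, against 1.19% of all genes. The sum of the 12 was 200 to 285 CPM in heterozygous and 360 to 409 CPM in homozygous libraries. At E9.0, 0 of 12 passed, with sums of 312 to 336 and 368 to 381 CPM. The log2 differences of 12 of 12 endothelial markers were above 0 at both stages. Their part in the Eng difference was not tested.

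**Figure D4:**
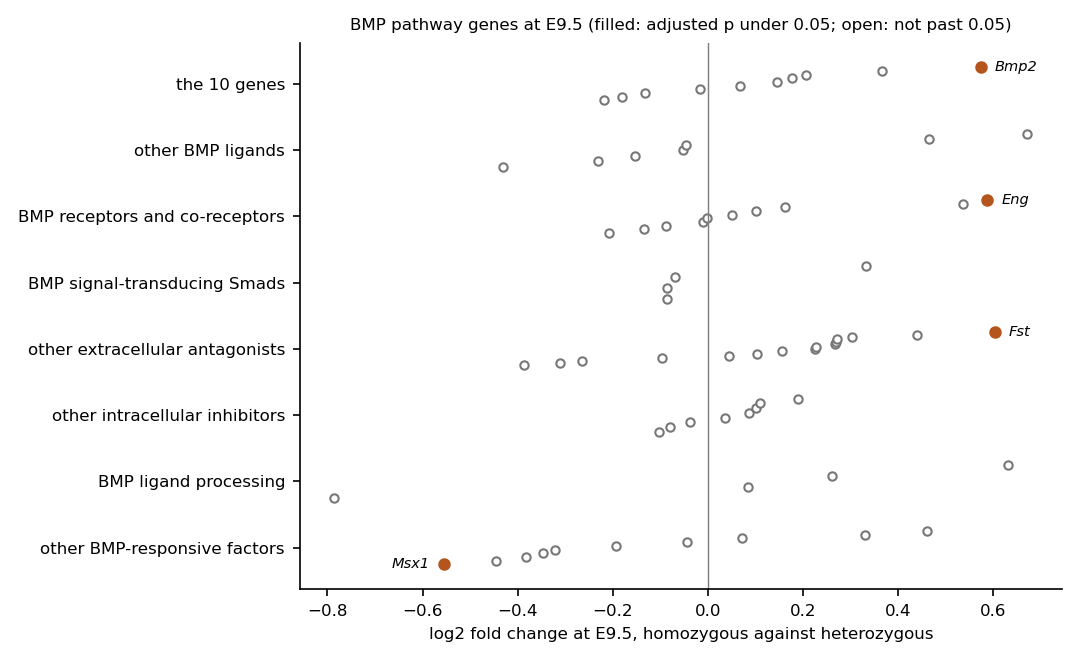
Log2 difference of homozygous minus heterozygous embryos at E9.5 for the 58 tested genes of 7 BMP pathway lists and the 10 genes followed here, 1 point per gene and 1 row per list. Filled points passed the adjusted threshold of 0.05 in edgeR; these are Bmp2, Eng and Fst to the right of 0 and Msx1 to the left.

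With stage in heterozygotes, 31 of the 58 genes passed, against 35.2% of all genes, with 20 higher (19.2% of all genes) and 11 lower (16.0%). In homozygotes 31 also passed, against 35.4% of all genes, with 22 higher (19.6%) and 9 lower (15.8%). The 3 largest rises in heterozygotes were those of Bmp10, Sostdc1 (log2 1.84 ± 0.16) and Tll2 (log2 1.47 ± 0.49). Bmp10 is a ligand of the embryonic heart, Sostdc1 a secreted antagonist and Tll2 a protease. Bmp10 had 0 to 3 counts in the heterozygous E9.0 libraries and 87 to 145 counts (3.05 to 4.26 CPM) at E9.5. Tll2 rested on 4 to 7 and 16 to 36 counts, and its call was lost without heterozygous E9.0 replicate 1 or 3 or heterozygous E9.5 replicate 2 (adjusted p = 0.0542 to 0.134) and with DESeq2 (0.0665). The 3 largest falls in heterozygotes were those of Bmp3 (log2 -1.92 ± 0.32), Fst (-1.14 ± 0.13) and Gdf10 (-1.07 ± 0.27). The Gdf10 value was -0.68 with total counts alone.

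The tissue markers around the Bmp2 difference were examined because Bmp2 and Bmp5 are expressed in surface ectoderm and other epithelia. Surface ectoderm markers summed to 304 to 354 CPM in heterozygous and 353 to 438 CPM in homozygous E9.5 libraries, overlapping by 1 library. Of the 8 markers, 1 passed as higher, against 1.19% of all genes: Epcam (log2 0.31, edgeR adjusted p = 0.0400). At E9.0 they summed to 317 to 379 and 398 to 426 CPM, without overlap, while 0 of 8 passed. The log2 differences were above 0 for 7 of 8 at E9.0 and 6 of 8 at E9.5, and below 0 for the other markers, down to -0.22 and -0.19. Neural crest markers ran lower in the mutants at E9.0, at 445 to 478 against 380 to 407 CPM, with 1 of 10 passing as lower. At E9.5 their sums overlapped, at 265 to 335 against 266 to 315 CPM, with 4 of 10 passing as lower. Of all genes, 0.587% were called in either direction at E9.0 and 0.702% as lower at E9.5. The log2 differences of 9 of 10 crest markers were below 0 and that of 1 above 0 at both stages. Roof plate markers summed to 149 to 207 and 136 to 161 CPM at E9.5, with 2 of 7 passing as lower, also against 0.702% of all genes. At E9.0 they summed to 94.2 to 107 and 79.0 to 95.7 CPM, with 0 of 7 passing. The log2 differences of 7 of 7 roof plate markers were below 0 at both stages, with medians of -0.21 (E9.0) and -0.39 (E9.5). Heart muscle markers summed to 2114 to 2810 and 2513 to 3337 CPM at E9.5, with 1 of 8 passing as higher in homozygotes, against 1.19% of all genes. At E9.0, 0 of 8 passed, and the log2 differences of 8 of 8 were above 0 at both stages. The part of these tissues, and of the endothelium, in the differences of Bmp2, Bmp5, Id1, Id2, Id3 and Msx1 was not tested.

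**Figure D5:**
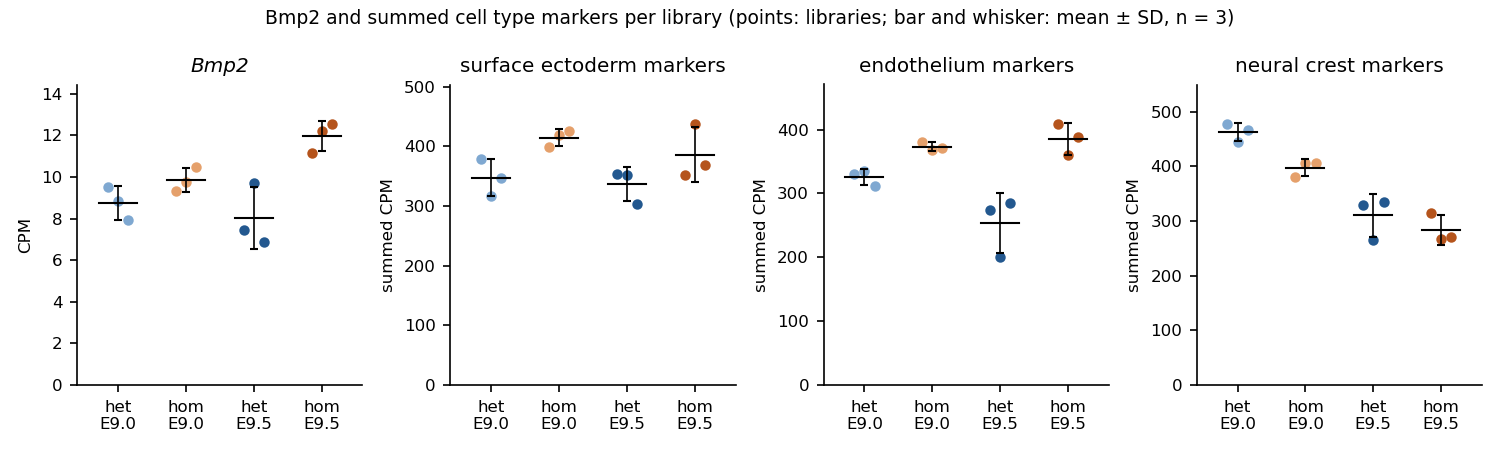
Bmp2 level (CPM) and summed level of surface ectoderm, endothelium and neural crest markers (summed CPM) in the 12 libraries, 1 panel each, with columns for heterozygous (het) and homozygous (hom) embryos at each stage, points for libraries and bars with whiskers for mean ± SD of 3. At E9.5 the homozygous libraries lie above the heterozygous ones for Bmp2 and endothelium, while surface ectoderm and neural crest markers overlap.

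Genes with the nearest course over the 12 libraries were found by the root-mean-square difference of log2 CPM after each gene was centred on its own mean. This covered 13093 genes with a mean of at least 1 CPM. For Bmp2 the nearest were Dsg2 (a desmosomal cadherin, 0.128), Bok (a relative of the apoptosis regulator Bcl2, 0.147) and Epcam (an epithelial adhesion protein, 0.151), against 0.254 for Bmp2 about its own mean. For genotype at E9.5, Dsg2 (log2 0.33, edgeR adjusted p = 0.124) and Bok (log2 0.24, edgeR adjusted p = 0.369) did not pass, and Epcam did (log2 0.31, edgeR adjusted p = 0.0400). For Bmp5 they were Arhgap29 (0.0870), Klf6 (0.0896) and Zfp935 (0.0930), against 0.169. For Smad6 they were Capn6 (0.0766), Mfge8 (0.0835) and Csrp2 (0.0837), against 0.370. These values describe the same libraries that gave the differences above and carry no test.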

How the data were processed

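The authors deposited 1 table of raw counts per gene symbol for the 12 libraries, with no normalization (whole numbers, with library totals that differ). The submitters' processing notes name cutadapt, STAR, featureCounts, MultiQC and mm10; versions, annotation and strand setting are not given in the sources used here. All 12 columns were matched to samples by their labels.

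Counts were analysed with edgeR 4.0.16 in R 4.3.3: filterByExpr by group, TMM factors, robust quasi-likelihood fits of 1 model with 4 group means, two-sided tests, and Benjamini-Hochberg adjustment over 14810 genes with a threshold of 0.05. The 9611 symbols left out held at most 0.0778% of a library. Alternatives used limma 3.58.1 and DESeq2 1.42.0, other scaling, filters and libraries; a correction for GC content and length was chosen after seeing the data. The pipeline was tested on simulated data. Standard errors are the log2 difference divided by the root of its F statistic.

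The 10 genes, the 7 pathway lists and the 8 marker lists were chosen with earlier results of these data known. All 10 genes are named; pathway genes are counted in full and named where past the threshold for genotype, or among the 3 largest rises and falls with stage in heterozygotes. The 3 genes most alike are named for Bmp2 and the next 2 genes by averaged genotype p. Loci, exon lengths and overlaps are from GENCODE M21 (GRCm38), promoters from RefSeq (GRCm38.p6).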

Additional observations from a re-analysis of the deposited data

Results flagged for a closer look

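Msx1 was the only gene of the 10 followed here and the 58 other pathway genes whose genotype difference changed between E9.0 and E9.5 past the threshold. The interaction was -0.67 on the log2 scale (edgeR adjusted p = 0.0198). That call was lost without heterozygous E9.0 replicate 2, heterozygous E9.5 replicate 1 or any 1 homozygous E9.5 library (edgeR adjusted p = 0.059 to 0.092). Scaling by total counts alone ended it too (edgeR adjusted p = 0.1355). The cause of the Msx1 change was not tested.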

How the results depend on the processing

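Of the values recomputed under other settings, 1468 kept their direction and side of the threshold, 87 no longer passed, 15 newly passed and 44 changed sign; the causes were not tested. At E9.0, 0 of the 10 genes passed in every alternative. At E9.5, where 1 passed, 2 did with DESeq2, limma-voom, no filter and the GC and length correction (added after seeing the data), 0 with total counts only or an adjusted p under 0.01, and 0 to 1 with a library left out. With only the E9.5 libraries the 1 call was Bmp5 (adjusted p = 0.0418), not Bmp2. Averaged over stages, 1 became 2 (Bmp2 and Bmp5) with the GC and length correction, 0 with an adjusted p under 0.01 and 0 to 1 with a library left out. The interaction gave 0 throughout. With stage, 5 to 7 of the 10 passed in heterozygotes and 6 to 7 in homozygotes. With the replicate number as a block, 0, 1, 1, 0, 5 and 7 of the 10 passed in the 6 comparisons in the order above; Nog lost its stage call (adjusted p = 0.0516) and Fstl1 gained one at E9.5 (0.0415). Same-numbered heterozygous and homozygous libraries deviated together with correlations of 0.0297 to 0.109 across genes, and differently numbered ones with -0.196 to 0.171. Not every library correlated best with its own number. With 3 libraries per group these values cannot settle whether the numbers pair the libraries. Over all genes the block gave 100 calls at E9.0 (87 without it), 393 at E9.5 (280) and 521 averaged (439). With stage it gave 5170 in heterozygotes (5216) and 5250 in homozygotes (5238).

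Log2 values that changed sign were all of genes not called there, apart from Id1 with stage in heterozygotes. At E9.0, Id1 became 0.0033 with RLE factors, 0.027 with upper quartile, 0.19 with total counts, 0.010 with a mean of at least 50 counts, 0.0097 with only the groups compared and 0.0046 without Rn45s. Also at E9.0, Id2 became 0.12 with total counts and Id3 -0.020 with the GC and length correction. Averaged, total counts gave Id1 0.026, Id3 0.0094 and Id4 0.077, upper quartile gave Id4 0.0017, and the GC and length correction gave Nog -0.0059. In the interaction, total counts gave Bmp4 -0.17, Smad6 -0.17 and Fstl1 -0.078, and the GC and length correction gave Bmp7 0.0001. With stage in heterozygotes, total counts gave Bmp2 0.26, Bmp5 0.24, Id1 0.11 and Id3 0.22, and the GC and length correction gave Id2 -0.12. With a library left out, values ranged at E9.0 from -0.082 to 0.24 (Bmp4), -0.029 to 0.16 (Bmp5) and -0.05 to 0.067 (Id1), at E9.5 from -0.077 to 0.043 (Nog), averaged from -0.12 to 0.071 (Id4), and in the interaction from -0.10 to 0.23 (Bmp4), -0.13 to 0.064 (Bmp7) and -0.032 to 0.12 (Smad6).

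Over all genes, the 87 calls at E9.0 became 229 with DESeq2, 177 with the GC and length correction, 34 at 0.01 and 38 to 86 with a library left out. The 280 at E9.5 became 438, 384, 81 and 133 to 252, and 123 with total counts. The 439 averaged calls became 720 with the GC and length correction, 159 at 0.01 and 246 to 411 with a library left out. The 10 interaction calls became 73 with DESeq2, 21 with the block, 19 with the GC and length correction, 5 with limma-voom, 1 at 0.01 and 1 to 16 with a library left out. The stage calls fell from 5216 to 3324 (heterozygotes) and from 5238 to 3384 (homozygotes) at 0.01, and the latter to 3326 with total counts. Higher calls made up 73.6% (E9.0), 62.9% (E9.5), 61.5% (averaged) and 55.3% (stage, homozygotes) of all calls, with total counts 96.2%, 47.2%, 84.8% and 87.1%, and with the GC and length correction 49.7%, 59.9%, 45.4% and 33.1%. With total counts the median of all genes was 0.19 at E9.0, 0.18 with stage in homozygotes and -0.19 in the interaction. At E9.0, counting precision is lowest for Nog, Id4, Bmp2 and Bmp4, the genes of the 10 with the fewest counts there.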
